A study of Homo sapiens with 10 samples.

Results

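The genes described here encode glutathione S-transferases (GSTs) and an exporter of glutathione conjugates. They are 10 genes chosen by symbol for this role, with earlier results of these data known, from a table of 28380 genes. They were GSTP1 (pi class), GSTM2, GSTM3 and GSTM4 (mu class), GSTO1 (omega class), GSTK1 (kappa class), the microsomal MGST1, MGST2 and MGST3, and the exporter ABCC1, also called MRP1. All 10 had enough counts to enter the test, which covered 13378 genes.

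GSTs join the thiol of glutathione to electrophilic compounds, and membrane pumps of the ABCC family then carry many of the conjugates out of the cell. Isothiocyanates such as sulforaphane (SFN), the plant compound studied here, are substrates of this route, and several of its genes are known targets of NRF2, the stress-responsive transcription factor that SFN activates. The family has cytosolic classes named by letter (pi, mu, omega), a kappa class in mitochondria and peroxisomes, and membrane-bound microsomal enzymes (MGSTs) of separate origin.

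RPE-1 is an established, telomerase-immortalized human retinal pigment epithelial line. Cells of this line in complete medium received either 25 µM SFN or the vehicle DMSO for 4 h, with 5 libraries per treatment and no other agent named. The libraries were 3′ tag libraries (QuantSeq), with total counts from 15689294 to 20666692 in DMSO and from 12375860 to 17308706 in SFN. Levels are given as CPM, the count scaled to a common library size with TMM factors, and a gene was called when its adjusted p was under 0.05 in the edgeR quasi-likelihood test (Benjamini-Hochberg, over all tested genes). SE is the standard error of a log2 fold change. The study's methods give cells seeded per replicate, but neither they nor the labels state whether the 5 replicates were grown as independent cultures, so the p-values measure the spread between these libraries, which may be technical, and in bulk RNA fewer cells and less RNA per cell cannot be told apart.

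DMSO replicate 1 stood apart from the other libraries, and many of the values below turn on it. Across genes, its Spearman correlation to the rest of its group averaged 0.935, against 0.979 to 0.982 for each of those, where genes are not independent replicates. The libraries also differed in how counts depended on transcript length, expressed as the change of log2 CPM, relative to the mean of all libraries, for each doubling of the length. This length slope was -0.271 in DMSO replicate 1 and between 0.0872 and 0.148 in the other DMSO libraries. In SFN it was -0.183 in replicate 2, 0.109 in replicate 5 and between -0.0575 and -0.0355 in the other libraries. Of 9 markers of retinal pigment epithelium, BEST1, PMEL, MITF and OTX2 were high enough to test, while RPE65, RLBP1 and TYRP1 had at most 4 counts in a library, LRAT had between 3 and 12, and TYR had no row. MITF (log2 fold change -1.12 with SE 0.12, edgeR adjusted p = 5.3e-05) and OTX2 (log2 fold change -0.64 with SE 0.12, edgeR adjusted p = 0.0029) fell with SFN. Thus 2 of these 4 markers were called, against 23% of all tested genes. BEST1 had a log2 fold change of 1.17 (SE 0.56, edgeR adjusted p = 0.16) and was called higher without DMSO replicate 1 (1.68, adjusted p = 0.0096 by edgeR) and with the length slope as a covariate (0.67, adjusted p = 0.049 by edgeR). It had 107 CPM in SFN replicate 2, 4.11-fold the mean of the other SFN libraries. Whether its last exon overlaps other genes was not tested. Of 8 simple epithelial and mesenchymal markers, 6 were tested and 0 called, EPCAM had at most 2 counts in a library and CDH1 had no row. Without DMSO replicate 1, KRT8 was called higher (0.37 on the log2 scale, adjusted p = 0.016 by edgeR) and COL1A1 lower (-0.53, adjusted p = 0.0042), and with the covariate FN1 was called higher (0.35, adjusted p = 5.1e-04). The simple keratins KRT8 and KRT18 were present at 316 to 539 and 169 to 318 CPM. Of 5 blood cell markers, 3 had no row, and PTPRC and LYZ had at most 6 and 4 counts in a library, for a summed level of at most 0.358 CPM.

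The stretches of promoter sequence that carry the letters of the antioxidant response element, the site bound by NRF2 with small MAF proteins, are shown first. Binding of NRF2 was not tested, and sequence outside the windows given below was not searched. The core TGACNNNGC was searched on both strands of windows from 250 bases before to 50 bases after each RefSeq start site (GRCh38.p14), in which capitals mark the match. A window was given for 8 of the 10 genes, and MGST2 and ABCC1 had none. The core was present in 3 of the 8 genes, with 4 matches in all. Counted by window, it was in 3 of the 10 given for these genes (30%), and in 13.3% of all 35116 promoter windows. Each sequence is written in the direction of the gene.
GSTP1: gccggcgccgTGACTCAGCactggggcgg
GSTO1, distal: ggcggagggaTGACTGAGCatttataact
GSTO1, proximal: cgagatgcttTGACACAGCcccttaagat
MGST1: ggggacatcgTGACAAAGCaaattgtctg
The printed stretches lie at chr11:67583736-67583764 (GSTP1, plus strand), chr10:104254656-104254684 and chr10:104254721-104254749 (GSTO1, plus strand) and chr12:16347135-16347163 (MGST1, plus strand). In GSTP1 the core begins at position -66 from the RefSeq start, and its letters TGACTCA are also those of the AP-1 site. In GSTO1 the cores begin at positions -226 and -161 from the start, and in MGST1 at position 31 downstream of it, in 1 of 3 windows given for that gene. The other motifs searched, TGATGNAA of the C/EBP-ATF element and GAANNTTC of the heat shock element, were in none of the windows of the 10 genes and in 3.62% and 6.77% of all windows. A match is a description of letters, and no match says only that they are not in this window.

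With all 10 libraries, 0 of the 10 genes were called by edgeR, whereas 23% of all tested genes were, 9.07% higher and 13.9% lower. At an unadjusted p under 0.05 there was 1, GSTM4, against 34.6% of all tested genes, and DESeq2 called 0 of the 10. Over all genes 1214 were called higher and 1862 lower, and 819 and 2163 when libraries were scaled by their totals alone. A positive log2 fold change was fitted for 9 of the 10, with a median of 0.21 against -0.028 over all tested genes. The share of all tested genes with a positive value was not counted, and the sign of several of the 10 changed in other fits, given below. The DMSO and SFN libraries overlapped in all 10 genes, while SFN lay wholly above DMSO in 8.78% and wholly below in 11.1% of the tested genes.

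**Figure D1:**
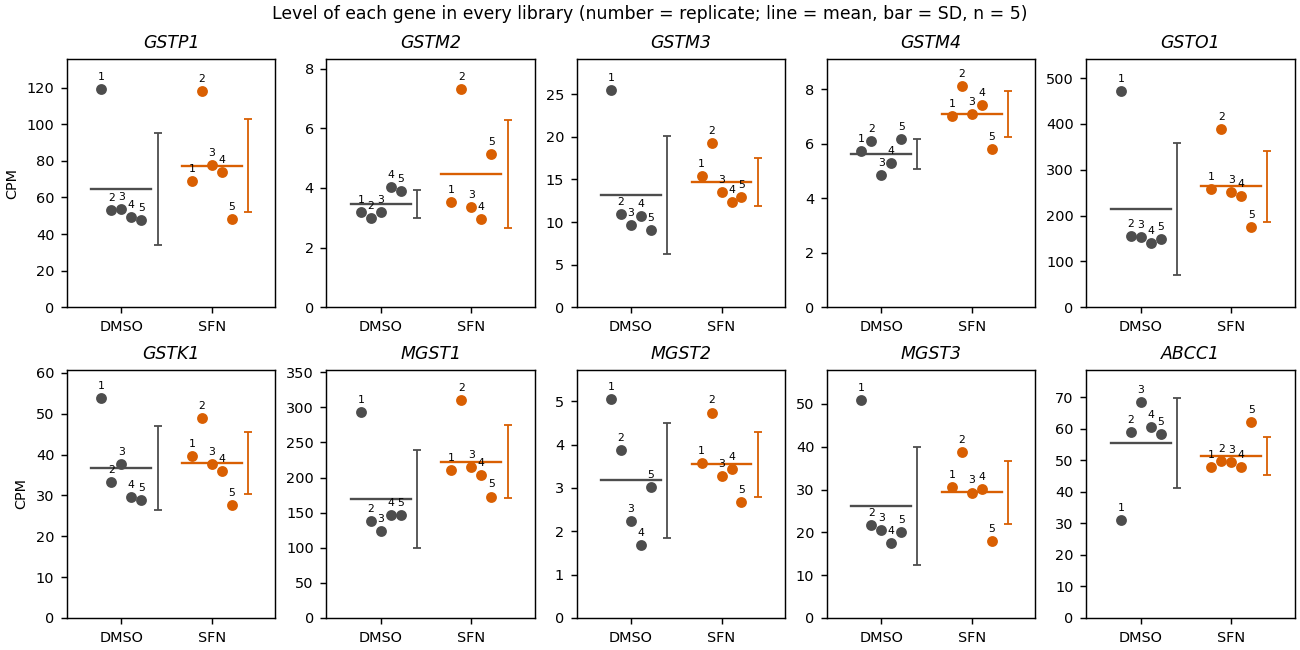
Level of the 10 genes in CPM (y axis, linear, from 0) in each DMSO and SFN library, with the replicate number beside each point, the group mean as a line and the SD as a bar (n = 5). DMSO replicate 1 is the highest DMSO library in 7 of the 10 genes and the lowest in ABCC1, and SFN replicate 2 is the highest SFN library in 9. The same was not counted over all tested genes.

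GSTP1 (ENSG00000084207) encodes the pi class enzyme, a major cytosolic GST of many epithelial cells and cell lines. It lies on chromosome 11 of GRCh38 from 67583742 to 67586656 (GENCODE 44, plus strand), with a canonical transcript of 741 bases in 7 exons. In DMSO replicates 1 to 5 its level was 119, 53.4, 53.8, 49.5 and 47.7 CPM, and in SFN replicates 1 to 5 it was 69.2, 118, 77.6, 73.8 and 48.4 CPM. Replicate 1 was 2.33-fold above the mean of the other DMSO libraries, and SFN replicate 5 lay within the range of those. The means were 64.7 ± 30.6 CPM (SD, n = 5) in DMSO and 77.5 ± 25.5 CPM (SD, n = 5) in SFN, and the log2 fold change of 0.26 was smaller than its standard error of 0.29 (edgeR adjusted p = 0.58). Without DMSO replicate 1 it was 0.59 (SE 0.18, edgeR adjusted p = 0.017).

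GSTO1 (ENSG00000148834) encodes the omega class enzyme, a glutathione-dependent thioltransferase that also takes part in arsenic metabolism. Its canonical transcript of 813 bases lies on chromosome 10 from 104254892 to 104267455, on the plus strand. Its level in DMSO replicates 1 to 5 was 472, 155, 153, 141 and 149 CPM. In SFN replicates 1 to 5 it was 259, 389, 251, 243 and 176 CPM. All SFN libraries lay above DMSO replicates 2 to 5 and below DMSO replicate 1, which was 3.15-fold above the mean of the others. With all libraries the log2 fold change was 0.30 (SE 0.35, edgeR adjusted p = 0.60), and without DMSO replicate 1 it was 0.81 (SE 0.16, edgeR adjusted p = 0.0013), the largest of the 10 genes in that fit and still less than 2-fold.

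The 3 microsomal enzymes are integral membrane proteins of the endoplasmic reticulum and, for MGST1, also of the outer mitochondrial membrane. MGST1 (ENSG00000008394) conjugates glutathione and reduces lipid hydroperoxides, and its gene lies on chromosome 12 from 16347142 to 16609259. Its level was 293, 138, 124, 146 and 147 CPM in DMSO replicates 1 to 5 and 211, 311, 215, 203 and 173 CPM in SFN replicates 1 to 5. As in GSTO1, every SFN library exceeded DMSO replicates 2 to 5, but the DMSO group as a whole (169 ± 69.4 CPM, SD, n = 5) overlapped the SFN group (223 ± 52.0 CPM, SD, n = 5). The log2 fold change was 0.39 (SE 0.24, edgeR adjusted p = 0.28) and was 0.68 (SE 0.14, edgeR adjusted p = 0.0013) without DMSO replicate 1.

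MGST3 (ENSG00000143198), on chromosome 1 from 165631213 to 165661796, had 50.8, 21.8, 20.6, 17.5 and 20.1 CPM in DMSO replicates 1 to 5 and 30.5, 38.7, 29.3, 30.2 and 17.9 CPM in SFN replicates 1 to 5. SFN replicate 5 was within the range of DMSO replicates 2 to 5, and the other SFN libraries were above it. The log2 fold change was 0.17 (SE 0.30, edgeR adjusted p = 0.74), and 0.55 (SE 0.17, edgeR adjusted p = 0.016) without DMSO replicate 1. MGST2 (ENSG00000085871), which like MGST3 can conjugate leukotriene A4, lies on chromosome 4 from 139665768 to 139740745 and was counted only 28 to 85 times in a library. It had between 1.69 and 5.04 CPM in DMSO and between 2.68 and 4.74 CPM in SFN, and was called neither with DMSO replicate 1 (log2 fold change 0.16 with SE 0.28) nor without it (log2 fold change 0.36 with SE 0.24).

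The mu class genes stand in a cluster on chromosome 1, with GSTM4 from 109656099 to 109665496 and GSTM2 from 109668022 to 109709551. On the opposite strand, GSTM3 lies from 109733932 to 109741038. GSTM3 (ENSG00000134202) had 25.5, 10.9, 9.62, 10.7 and 9.06 CPM in DMSO replicates 1 to 5. It had 15.4, 19.3, 13.5, 12.4 and 12.9 CPM in SFN replicates 1 to 5, so that DMSO replicate 1 was the highest of all libraries and the other DMSO libraries the lowest. Its log2 fold change was 0.16 (SE 0.28, edgeR adjusted p = 0.74) with all libraries and 0.53 (SE 0.14, edgeR adjusted p = 0.0062) without DMSO replicate 1. Its last exon overlaps the annotated spans of GSTM5 and ENSG00000241720, introns included, on the other strand. These had at most 1 and 6 counts in a library. Overlap with their exons was not tested over the whole exon. In the last 300 bases of the GSTM3 transcript, 0 of 251 stretches of 50 bases were found in another gene, on either strand. The use of strand in counting was not given, so reads of these genes in the rest of that exon could not be told apart.

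GSTM4 (ENSG00000168765) had 5.73, 6.11, 4.86, 5.30 and 6.16 CPM in DMSO replicates 1 to 5 and 7.03, 8.11, 7.07, 7.42 and 5.79 CPM in SFN replicates 1 to 5. Only SFN replicate 5 reached into the DMSO range, and DMSO replicate 1, at 5.73 CPM, did not stand apart. The log2 fold change of 0.33 (SE 0.14) had an unadjusted p of 0.033 and an adjusted p of 0.11 by edgeR. By limma-voom on quantile normalized values, the nearest analysis to that in the study's methods, it was 0.53 (adjusted p = 0.013), and GSTM4 was the 1 gene of the 10 called there. Over all 13378 tested genes, that fit called 1317 higher and 1533 lower.

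GSTM2 (ENSG00000213366) had between 3.01 and 4.04 CPM in DMSO and 3.52, 7.33, 3.35, 2.97 and 5.15 CPM in SFN replicates 1 to 5. Replicates 2 and 5 were above all DMSO libraries and the other SFN libraries within or below their range (log2 fold change 0.36 with SE 0.25, edgeR adjusted p = 0.35). The separate values of GSTM2 and of its neighbour GSTM1 are uncertain. Of the 251 stretches of 50 bases in the last 300 bases of the canonical GSTM2 transcript, where 3′ tags fall, 251 were also found in annotated GSTM1 transcripts, whereas 4 of 251 in GSTM4 and 0 in each of the other 8 genes were found in another gene.

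GSTK1 (ENSG00000197448) encodes the kappa class enzyme of mitochondria and peroxisomes and lies on chromosome 7 from 143244093 to 143270854. It had 53.9, 33.4, 37.7, 29.6 and 28.8 CPM in DMSO replicates 1 to 5 and 39.6, 48.9, 37.7, 35.9 and 27.6 CPM in SFN replicates 1 to 5. The groups lay on top of each other, at 36.7 ± 10.3 and 37.9 ± 7.65 CPM (SD, n = 5 each), with a log2 fold change of 0.05 (SE 0.20, edgeR adjusted p = 0.89). It was not called without DMSO replicate 1 either (log2 fold change 0.22 with SE 0.14, edgeR adjusted p = 0.21). Its last exon overlaps the annotated span of TMEM139-AS1, introns included, on the other strand. In the last 300 bases of the GSTK1 transcript, 0 of 251 stretches of 50 bases were found in another gene, on either strand. Reads of TMEM139-AS1 elsewhere in that exon could not be told apart without strand.

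ABCC1 (ENSG00000103222) encodes a plasma membrane pump for glutathione, glucuronide and sulfate conjugates and for oxidized glutathione. Its gene lies on chromosome 16 from 15949138 to 16143257, and its canonical transcript of 6504 bases in 31 exons is the longest of the 10. It had 31.1, 58.9, 68.4, 60.7 and 58.2 CPM in DMSO replicates 1 to 5 and 47.9, 49.8, 49.6, 47.8 and 62.2 CPM in SFN replicates 1 to 5. Here DMSO replicate 1 was the lowest library, at 0.505 of the mean of the other DMSO libraries, and SFN replicates 1 to 4 lay between it and the rest. The log2 fold change was -0.11 (SE 0.19, edgeR adjusted p = 0.73) and, without DMSO replicate 1, -0.26 (SE 0.10, edgeR adjusted p = 0.038).

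Leaving out DMSO replicate 1 thus raised the number of called genes among the 10 from 0 to 5 higher (GSTP1, GSTM3, GSTO1, MGST1 and MGST3) and from 0 to 1 lower (ABCC1). Over all genes, the share called in this fit was 46.1%, with 22.5% higher and 23.5% lower. SFN lay wholly above the remaining DMSO libraries in 3 of the 10 genes (GSTM3, GSTO1 and MGST1), against 16.6% of all tested genes, and wholly below in 0 of the 10, against 19.6%. The median log2 fold change of the 10 was 0.45, and that of all tested genes -0.0032. When any 1 of the other 9 libraries was left out, 0 of the 10 were called by edgeR.

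In both treatments, the library with the most negative length slope was the highest of its group for most of these genes. Among the DMSO libraries this rests on replicate 1 alone, the highest in 7 of the 10. A relation of level to slope within a treatment was not tested. How often each library was the highest or lowest of its group was not counted over all tested genes. These counts are therefore not a result particular to the 10 genes. SFN replicate 2, with the most negative slope of the SFN libraries, was the highest SFN library in 9 of the 10 genes, by a factor of 1.76 over the mean of the other SFN libraries for GSTP1, 1.68 for GSTO1 and 1.55 for MGST1. SFN replicate 5, whose slope lay within the range of DMSO replicates 2 to 5, was the lowest SFN library in 7 of the 10 and the highest in ABCC1. Of the 10 canonical transcripts, 8 were shorter than 1500 bases, and the share of all tested genes below this length was not counted. GSTM3, with a canonical transcript of 4122 bases, was higher in DMSO replicate 1 like the shorter ones, by a factor of 2.54, and GSTM2 and GSTM4, of 1166 and 1394 bases, were not, with factors of 0.899 and 1.02. What set the slope of a library was not tested.

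**Figure D2:**
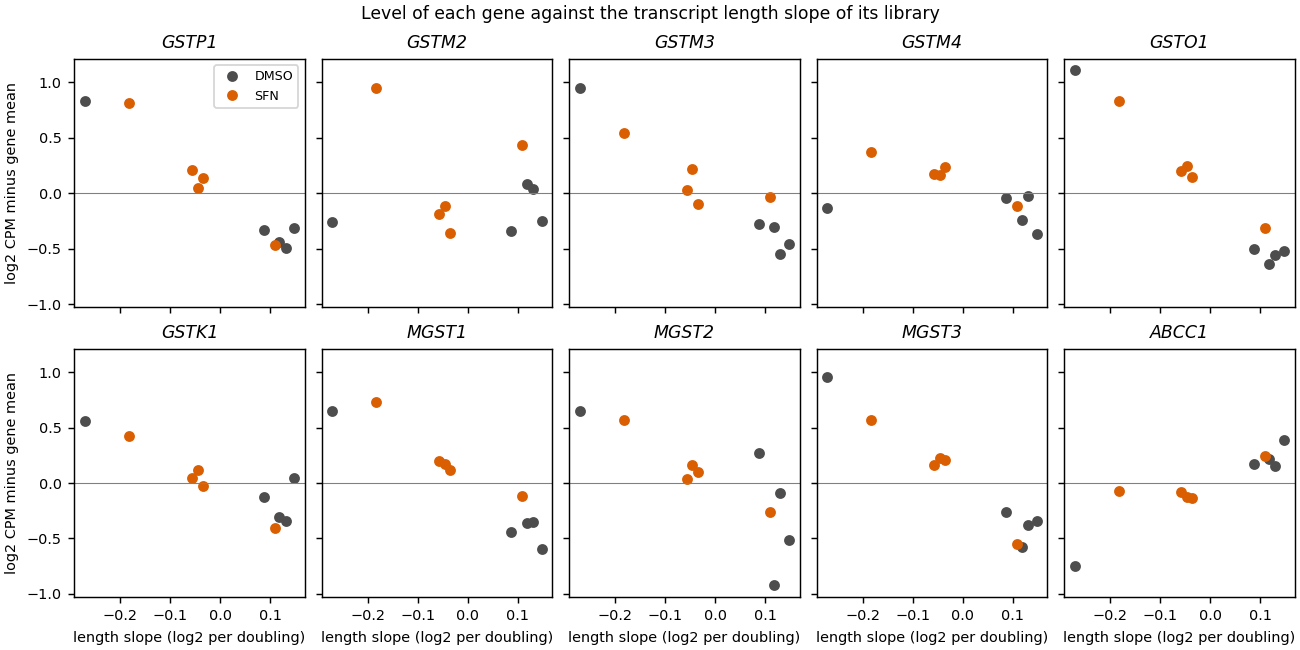
Level of each gene in a library, as log2 CPM minus the mean of the gene over the 10 libraries (y axis), against the length slope of that library, in log2 CPM per doubling of transcript length (x axis), with DMSO in grey and SFN in orange. GSTP1, GSTM3, GSTO1, GSTK1, MGST1, MGST2 and MGST3 are highest in the libraries with slopes of -0.271 and -0.183, from either treatment. ABCC1 is lowest at -0.271.

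With the length slope as a covariate in the model, which was added once the data had been seen, 1 of the 10 genes was called. This was MGST1, with a log2 fold change of 0.21 (SE 0.07, edgeR adjusted p = 0.022). Of all genes, 50.3% were called in this fit, 24.6% higher and 25.6% lower. The log2 fold change was 0.01 for GSTP1, -0.0039 for GSTM3, 0.09 for GSTO1 and -0.048 for MGST3, with standard errors between 0.07 and 0.11, and 0.11 (SE 0.09) for ABCC1. The median over the 10 was 0.05. The slopes of SFN replicates 1 to 4 lay below those of DMSO replicates 2 to 5, so that among the remaining libraries slope and treatment are partly confounded. With both the covariate and DMSO replicate 1 left out, 0 of the 10 were called, against 32.3% of all genes, 16.1% higher and 16.2% lower. With DMSO replicate 1 and SFN replicate 2 both left out and no covariate, 5 of the 10 were called higher and 1 lower, against 47.6% of all genes, 23.2% higher and 24.4% lower.

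**Figure D3:**
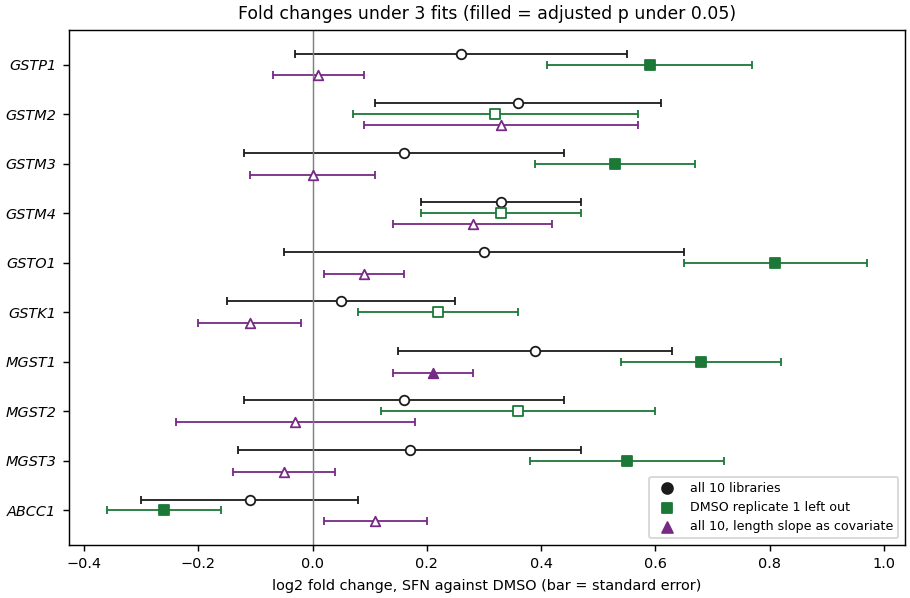
Log2 fold change of SFN against DMSO (x axis) with its standard error (bar) for each of the 10 genes under 3 fits, with filled symbols for adjusted p under 0.05 by edgeR. No gene is filled with all libraries, 6 are filled without DMSO replicate 1, and MGST1 alone is filled with the length slope as covariate.

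Other members of the family, written as a list of 18 GST and related MAPEG genes, were compared in the same fit. Of these, 6 had no row in the table (GSTA1, GSTA2, GSTA5, GSTT1, GSTT4 and HPGDS), 6 had too few counts for the test (GSTA3, GSTM5, GSTT2, LTC4S, ALOX5AP and PTGES, with at most 13 in a library) and 6 were tested. Of the 6, 2 were called higher (GSTO2 and GSTM1) and 0 lower, against 9.07% and 13.9% of all tested genes. The median log2 fold change of the 6 was 0.35. The tested genes that were not called were GSTA4, GSTT2B, GSTZ1 and GSTCD. GSTZ1, of the zeta class, had 22.1 CPM in DMSO replicate 1 and between 5.92 and 6.33 CPM in the other DMSO libraries, and was called without that library (log2 fold change 0.82, edgeR adjusted p = 9.1e-04).

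GSTO2 (ENSG00000065621), the second omega class gene, which encodes a dehydroascorbate reductase, rose in every SFN library. It had 1.43, 1.32, 1.12, 1.08 and 1.24 CPM in DMSO replicates 1 to 5 and 8.05, 6.38, 6.78, 8.70 and 7.77 CPM in SFN replicates 1 to 5. These levels rest on 18 to 29 counts in the DMSO libraries and 74 to 135 in the SFN libraries. The groups were far apart, with DMSO at 1.24 ± 0.144 and SFN at 7.54 ± 0.947 CPM (SD, n = 5 each), or 6.05-fold higher (log2 fold change 2.60 with SE 0.16, edgeR adjusted p = 1.1e-06). DMSO replicate 1 did not stand apart, and the log2 fold change was 2.65 without it and 2.60 with the length slope as covariate. The canonical GSTO2 transcript begins 1728 bases downstream of the end of GSTO1, on the same strand, and has no stretch of 50 bases in its last 300 that is found in another gene. Whether any of its reads came from transcripts that begin in GSTO1 was not tested.

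GSTM1 (ENSG00000134184) had 7.60, 12.9, 10.3, 11.7 and 12.3 CPM in DMSO replicates 1 to 5 and 14.2, 17.8, 14.2, 15.3 and 14.6 CPM in SFN replicates 1 to 5. All SFN libraries lay above all DMSO libraries (log2 fold change 0.47 with SE 0.15, edgeR adjusted p = 0.042), but the call was lost in 11 of 20 alternatives, among them the omission of DMSO replicate 3, 4 or 5 or of any 1 SFN library (adjusted p from 0.054 to 0.092). Its last 300 bases share all 251 stretches with GSTM2 transcripts, as above. The whole gene, from 109687814 to 109709039, lies within the annotated span of GSTM2 (109668022 to 109709551) on the same strand. Its last exon also overlaps an unnamed gene on the other strand. Its promoter window holds the core TGACNNNGC once, at position -165 from the start, at chr1:109687642-109687670. The core was in 0 of the 2 windows given for GSTO2 and in 0 of the 1 given for ABCC2.
GSTM1: ctgggcgcccTGACTTCGCtcccggaacc

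Of 10 further exporters of conjugates and drugs, 6 were tested, with a median log2 fold change of 0.09. Of these 6, 1 was called higher and 0 lower, against 9.07% and 13.9% of all tested genes. The called gene was ABCC2 (ENSG00000023839), or MRP2, the apical pump for glutathione conjugates. It was counted between 4 and 17 times in the DMSO libraries and had 0.249, 0.501, 0.503, 1.02 and 0.414 CPM there. In SFN replicates 1 to 5 it had 1.79, 1.90, 1.12, 1.35 and 2.26 CPM. The SFN libraries were all above the DMSO libraries, though at low levels, and the nearest pair lay at 1.02 and 1.12 CPM (log2 fold change 1.63 with SE 0.35, edgeR adjusted p = 0.0059). ABCC3, ABCC4, ABCC5, ABCC10 and ABCG2 were not called, ABCC6, ABCC11 and ABCB1 had at most 8 counts in a library, and ABCC12 had no row. Without DMSO replicate 1, ABCC10 (log2 fold change -0.93) and ABCC5 (log2 fold change -0.32) were called lower, and ABCC2 was again called higher.

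After export, conjugates are trimmed by gamma-glutamyl transferases and dipeptidases and acetylated to mercapturic acids. A list of 15 genes was written for this pathway, of which ACY1, ACY3, KYAT1 and KYAT3 do not carry out these steps. Of the 15, 7 had no row (GGT6, DPEP1, DPEP2, DPEP3, NAT8, NAT8B and ACY3), 2 had too few counts and 6 were tested. Of these 6, 0 were called by edgeR, against 23% of all tested genes. The tested genes were GGT7, ANPEP, LAP3, ACY1, KYAT1 and KYAT3, with log2 fold changes between -0.19 and 0.31. GGT1, the main gamma-glutamyl transferase, had 0 to 8 counts in the DMSO libraries and 8 to 19 in the SFN libraries. It was called in the fit without a low-count filter (log2 fold change 2.20 with SE 0.61, edgeR adjusted p = 0.024). GGT5 had at most 1 count in a library. Without DMSO replicate 1, KYAT3 was called higher (log2 fold change 0.27, edgeR adjusted p = 0.029).

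Of 7 tested genes of glutathione supply, 4 were called higher and 0 lower, against 9.07% and 13.9% of all tested genes, with a median log2 fold change of 0.40. SLC3A2 and SLC7A11, which form the cystine transporter system xc-, rose 4.52-fold and 3.04-fold. SLC3A2 went from 139 ± 22.02 to 629 ± 72.2 CPM (SD, n = 5; edgeR adjusted p = 1.2e-06), and SLC7A11 from 67.7 ± 9.79 to 206 ± 55.9 CPM (SD, n = 5; edgeR adjusted p = 8.5e-05).

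GCLM, the modifier subunit of glutamate-cysteine ligase, had 97.8, 56.8, 50.2, 56.5 and 56.9 CPM in DMSO replicates 1 to 5 and between 149 and 164 CPM in SFN, a 2.47-fold increase (edgeR adjusted p = 2.0e-04). DMSO replicate 1 was the highest DMSO library here too, and it was still below every SFN library. The catalytic subunit gene GCLC did not pass the test (log2 fold change -0.30 with SE 0.15, edgeR adjusted p = 0.18). The GCLM window holds the core on the strand opposite to the gene, at positions -34 to -26 (chr1:93909446-93909474).
GCLM: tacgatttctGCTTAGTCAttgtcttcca
GSS, which completes glutathione synthesis, rose with a log2 fold change of 0.40 (SE 0.11, edgeR adjusted p = 0.024). The call of GSS was lost in 7 of 20 alternatives, which left 3 of the 7 genes called. These were the omission of DMSO replicate 4 (edgeR adjusted p = 0.055), SFN replicate 2 (0.056) or SFN replicate 3 (0.068), a replicate block (0.051), scaling by library totals (0.147), no low-count filter (0.0903), and the covariate without DMSO replicate 1 (log2 fold change 0.11, adjusted p = 0.39). GSR and PGD were not called, and without DMSO replicate 1 GSR was (log2 fold change 0.30, edgeR adjusted p = 0.034).

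Among 10 genes often used as markers of NRF2 activity, GCLM and SLC7A11 are shared with the supply list, and 8 were tested. Of these 8, 3 were called higher (GCLM, SLC7A11 and HMOX1) and 0 lower, against 9.07% and 13.9% of all tested genes. HMOX1, the inducible heme oxygenase, rose from 19.9 ± 3.01 to 53.1 ± 3.13 CPM (SD, n = 5; log2 fold change 1.42 with SE 0.12, edgeR adjusted p = 9.9e-06). AKR1B10 and AKR1C1 had too few counts. The tested genes NQO1, TXNRD1, SRXN1, OSGIN1 and PIR were not called, with log2 fold changes between 0.28 and 0.61. NQO1 and PIR, like GSTP1 and GSTO1, were highest of the DMSO libraries in replicate 1, and without it both were called (log2 fold changes 0.48 and 1.04), as was TXNRD1 (0.45). GSTO2, ABCC2, GCLM, SLC3A2, SLC7A11 and HMOX1 were called higher in all 20 alternatives, and none of the 10 genes in more than 3.

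**Figure D4:**
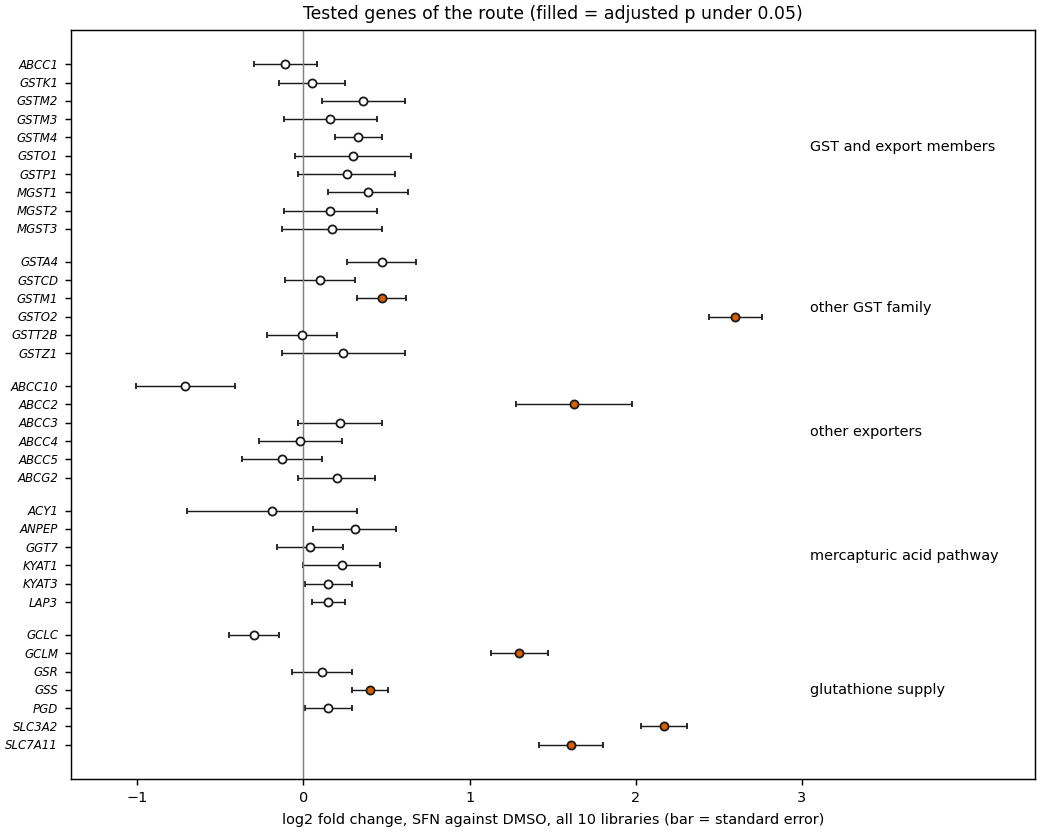
Log2 fold change of SFN against DMSO with all 10 libraries (x axis) and its standard error (bar) for each tested gene of the route, grouped by list, with filled symbols for adjusted p under 0.05 by edgeR. None of the 10 genes is filled, while GSTO2 lies at 2.60, ABCC2 at 1.63 and SLC3A2 at 2.17.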

How the data were processed

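Per the methods, the authors aligned Lexogen QuantSeq reads in the Bluebee pipeline and named genes with biomart for GRCh38. Per the labels, the processing notes name FastQC, STAR, featureCounts and edgeR; versions, strand, multi-mapped read and molecular identifier settings are not given in the sources used here. The authors deposited raw counts per gene for 28380 genes, unpooled, and 46 rows have an identifier but no symbol. The repeated measures term of the study's model is not defined and was not used.

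The counts were analysed in R 4.3.3 (edgeR 4.0.16, DESeq2 1.42.0, limma 3.58.1). Low genes were removed by filterByExpr, TMM factors were applied, and SFN was compared with DMSO by glmQLFit and glmQLFTest with Benjamini-Hochberg adjustment. Standard errors were derived from F and the fold change. Replicates differed by more than counting noise (chi-square per degree of freedom of 3.50 or more in every pair). The length slope used 13324 canonical GENCODE 44 transcripts. The methods were tested on simulated counts with known changes. In these no library was set apart and no dependence on transcript length was built in, so neither feature was tested. Promoter sequences were from RefSeq.

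The 10 genes and all lists were chosen with earlier results of these data known. Some genes first listed are not reported here, for reasons unrelated to their values, and were taken out of the list counts after these had been seen. All 10 are named, as is every called gene of the route and marker lists; NQO1, TXNRD1, PIR, GCLC, GSR, GSTZ1, KYAT3, GGT1, ABCC5, ABCC10, BEST1, KRT8, COL1A1 and FN1 were given values after these were seen. Alternatives covered normalization, test, filter, a replicate block and leaving out each library; a length slope covariate, alone or without DMSO replicate 1, and leaving out DMSO replicate 1 with SFN replicate 2 were added after seeing the data.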

Additional observations from a re-analysis of the deposited data

Results flagged for a closer look

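In 108 groups of 5 libraries examined (all 51 tested genes of the lists and 3 library measures), 1 library stood apart from the rest in 29. The rule was Dixon's criterion, with a limit of 0.71 for 5 values, applied to CPM for genes. Its nominal rate, which assumes independent and normal values, gives about 5.4. The groups share the same 10 libraries, so the 29 are not separate events and were not tested against that rate. DMSO replicate 1 accounted for 22 of the 29. Parentheses hold the distance from that library to its closest neighbour as a share of the whole range of the 5.

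Among the 10 genes, DMSO replicate 1 stood apart at the top of its group for GSTP1 (0.91), GSTM3 (0.89), GSTO1 (0.96), MGST1 (0.87) and MGST3 (0.87), and it was the lowest for ABCC1 (0.73). SFN replicate 5 was the highest SFN library for ABCC1, at 62.2 CPM (0.86).

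Among the other listed genes, DMSO replicate 1 was the highest DMSO library for GSTZ1 (0.97), ACY1 (0.95), GCLM (0.86), GSR (0.75), NQO1 (0.98), PIR (0.92) and KRT8 (0.72). It was the lowest for GSTCD (0.73), ABCC4 (0.81), ABCC5 (0.75), ABCC10 (0.77), PGD (0.77), TXNRD1 (0.80) and FN1 (0.87). SFN replicate 2 was the highest SFN library for GSTM1, at 17.8 CPM (0.71), for GGT7 (0.89), BEST1 (0.84) and VIM (0.76), and the lowest for GSTCD (0.78). DMSO replicate 5 was the highest DMSO library for OTX2 (0.73). DMSO replicate 1 also stood apart in its TMM factor of 0.886 (0.91) and its length slope of -0.271 (0.86).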

How the results depend on the processing

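Of the 20 alternatives, 4 called any of the 10 genes. With all libraries 0 of the 10 were called higher and 0 lower. Limma-voom on quantile values called 1 higher, the length slope covariate 1 higher, and leaving out DMSO replicate 1 with SFN replicate 2 called 5 higher and 1 lower. With 1 library left out, 0 to 5 were called higher and 0 to 1 lower. Over all genes, 1214 were called higher and 1862 lower, with ranges of 906 to 3058 and 1470 to 3193 when 1 library was left out. These numbers were 3292 and 3431 with the covariate, 2179 higher with the covariate and without DMSO replicate 1, and 3106 and 3273 without DMSO replicate 1 and SFN replicate 2. They were 1317 and 1533 by limma-voom on quantile values. The cause was not tested.

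Of the other family genes, 1 was called higher by library size alone and 1 without a low-count filter, and 1 to 3 with 1 library left out. Of the exporters, 1 was called higher and 0 to 2 lower with 1 library left out, 2 higher with the covariate, 2 higher and 1 lower with the covariate and without DMSO replicate 1, and 1 higher and 1 lower without DMSO replicate 1 and SFN replicate 2. Of the mercapturic acid genes, 1 was called higher without the filter, 0 to 1 with 1 library left out, and 1 without DMSO replicate 1 and SFN replicate 2. Of the supply genes, 3 to 5 were called higher in every alternative. Of the NRF2 markers, 3 to 6 were called higher with 1 library left out and 7 with the covariate. There were 7 with the covariate and without DMSO replicate 1, and 6 without DMSO replicate 1 and SFN replicate 2. The share of all genes called, in either direction, was 23% with all libraries and 46.1% without DMSO replicate 1. It was 50.3% with the covariate and 32.3% with the covariate and without DMSO replicate 1. Without DMSO replicate 1 and SFN replicate 2 it was 47.6%. Without a low-count filter, 1135 of 28380 genes were called higher and 1717 lower.

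The log2 fold change changed sign for 6 of the 10 genes. With the covariate it was -0.0039 for GSTM3, -0.11 for GSTK1, -0.028 for MGST2, -0.048 for MGST3 and 0.11 for ABCC1. With the covariate and without DMSO replicate 1 it was -0.15 for GSTP1, -0.22 for GSTK1, -0.17 for MGST2 and -0.077 for MGST3. For GSTK1 it was -0.018 by library size alone, and -0.021, -0.029 and -0.052 without DMSO replicate 4, DMSO replicate 5 and SFN replicate 2, and 0.22 without DMSO replicate 1. For MGST2 it was -0.0036 without DMSO replicate 4 and 0.36 without DMSO replicate 1. Outside the 10, the sign changed for ABCC5 with the covariate (0.18) and with it and without DMSO replicate 1 (0.010), where it also changed for BEST1 (-0.028) and KRT8 (-0.0059). For FN1 it was -0.072 by library size alone, -0.18 by limma-voom, -0.086 without DMSO replicate 1 and SFN replicate 2, and -0.15 to 0.11 with 1 library left out.

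Same-numbered DMSO and SFN libraries did not deviate together in every pair (correlations from -0.267 to 0.484, with 1 of 5 DMSO libraries closest to its own number), so the numbers were not taken as pairs. With a replicate block 0 of the 10 genes were called, and 911 genes were higher and 1530 lower. GSTM2, MGST2 and ABCC2 rest on fewer than 90 counts in a library, and GSTO2 on 18 to 29 in the DMSO libraries, which limits their precision.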
